A study of Mus musculus with 20 samples.

Results

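Skeletal muscle genes were followed through RNA libraries of mouse subcutaneous adipose tissue (SAT), a tissue whose fat cells do not make sarcomeres. The 34 genes were taken by symbol from a table of 40440 gene entries, and they fall into 14 genes of fast fibres, 5 genes of slow fibres and 15 genes that both fibre kinds use. They were selected on their levels in these same SAT libraries, where earlier values had shown them high in VAT removed library 2, so their levels and group differences in SAT are given as a description and carry no test. All 34 had entries in the table.

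The study compared male C57BL/6J mice that had their epididymal visceral adipose tissue (VAT) taken out at 8 to 9 months of age with mice given a sham operation, an abdominal incision that left the fat pads in place. Both groups then ate a high-fat diet, for a time not given in the sources used here. Liver and SAT were sequenced, with 5 libraries for each pairing of tissue and surgery, and every animal in this account is of 1 strain and sex. Nothing in the sources used here says whether equal library numbers in liver and SAT mark 1 mouse, or whether each library is 1 animal. Any p-value below measures the spread between these libraries only.

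A skeletal muscle fibre contracts when myosin heavy chains pull on actin filaments, and titin and nebulin set the length of the sarcomere in which they slide. Calcium leaves the sarcoplasmic reticulum through the ryanodine receptor, binds the troponin complex on the thin filament and is pumped back by a calcium ATPase. Fast and slow fibres carry separate genes for most of these parts: adult fast fibres of the mouse use the myosins encoded by Myh4 (type IIb), Myh1 (type IIx) and Myh2 (type IIa), while slow fibres use Myh7. Type IIa and slow fibres are rich in myoglobin and mitochondria, and type IIb fibres rely mostly on glycolysis.

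Total counts per library ran from 20307159 to 43618452. All SAT libraries carried white adipocyte genes, with a 12-gene list summing to between 16006 and 33774 CPM, against 207 to 378 CPM in liver. CPM are read counts relative to library size, scaled by the TMM method between the libraries of a tissue. Liver and SAT were scaled apart, so levels set side by side between the tissues are approximate. Sham SAT libraries 3 and 4 stood apart from the rest: a list of 10 lymph node genes summed to 704 and 715 CPM there and to between 11.1 and 18.6 CPM in the other 8 SAT libraries. In bulk tissue, a larger number of muscle fibres in a sample and more RNA per fibre cannot be told apart.

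The summed level of the 34 genes was 129, 5129.8, 261, 287 and 155 CPM in sham libraries 1 to 5 and 2987, 68007, 753, 182 and 188 CPM in VAT removed libraries 1 to 5. VAT removed library 2 was the highest, sham library 2 the next, VAT removed library 1 the third and VAT removed library 3 the fourth. Both surgery groups therefore held libraries rich in muscle RNA, and the groups overlapped. In VAT removed library 2 the members took 5.95% of all counts, against 0.485% in sham library 2, 0.309% in VAT removed library 1 and 0.0728% in VAT removed library 3. The other 6 SAT libraries had between 0.0128% and 0.0324%, and the 10 liver libraries between 0.00489% and 0.0158%. The sum in VAT removed library 2 was 261 times the median of the other 9 SAT libraries, and 209 times with CPM scaled by total counts alone.

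**Figure D1:**
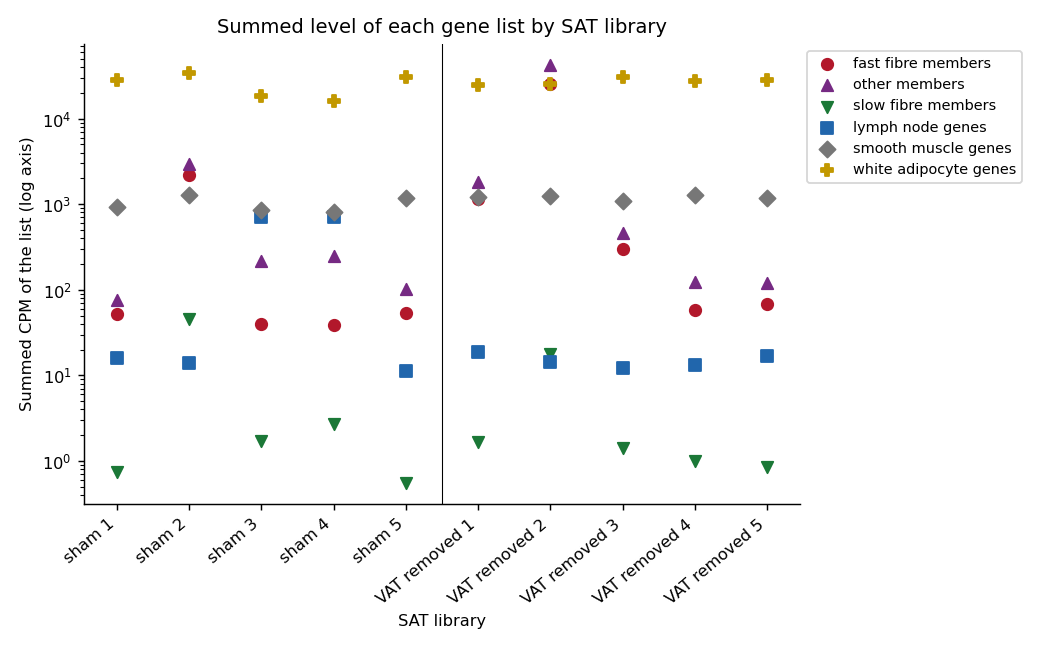
Summed CPM (log axis) of 6 gene lists in each of the 10 SAT libraries, sham on the left of the line and VAT removed on the right. The fast fibre genes and the genes of both fibre kinds are highest in VAT removed library 2 and next in sham library 2, the lymph node genes are high in sham libraries 3 and 4, and the smooth muscle genes stay between 810 and 1281 CPM.

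The order of the 4 libraries was shared by most single genes. In 24 of the 34 members the level was highest in VAT removed library 2, then in sham library 2, then in VAT removed library 1, and in 22 of these VAT removed library 3 was the fourth. VAT removed library 2 was the highest of the 10 for 26 members, and sham library 2 for 5 members, namely Myh1, Myh2, Mybpc1, Actn2 and Mb. Of the 29 members with enough counts for the fit, 23 were at least 4 times higher in VAT removed library 2 than in any other SAT library, a limit passed by 131 of the 18530 genes fitted (0.707%). The members were picked for this contrast, so their share is no finding. Within the sham group, 24 of the 29 were at least 4 times higher in library 2 than in any other sham library, against 67 of all genes fitted (0.362%). Sham library 2 is among the SAT libraries the members were selected on, so this share is no finding either. In the 6 libraries outside these 4, 16 of the 34 members had a median under 0.5 CPM. The 3 with a median of 20 CPM or more were Myl1 (35.4), Neb (28.0) and Ttn (27.3). Neb was higher in liver, at a median of 60.8 CPM, and Ckm had a median of 0.211 CPM in these 6 SAT libraries. Whether the levels in these 6 come from muscle fibres was not tested.

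**Figure D2:**
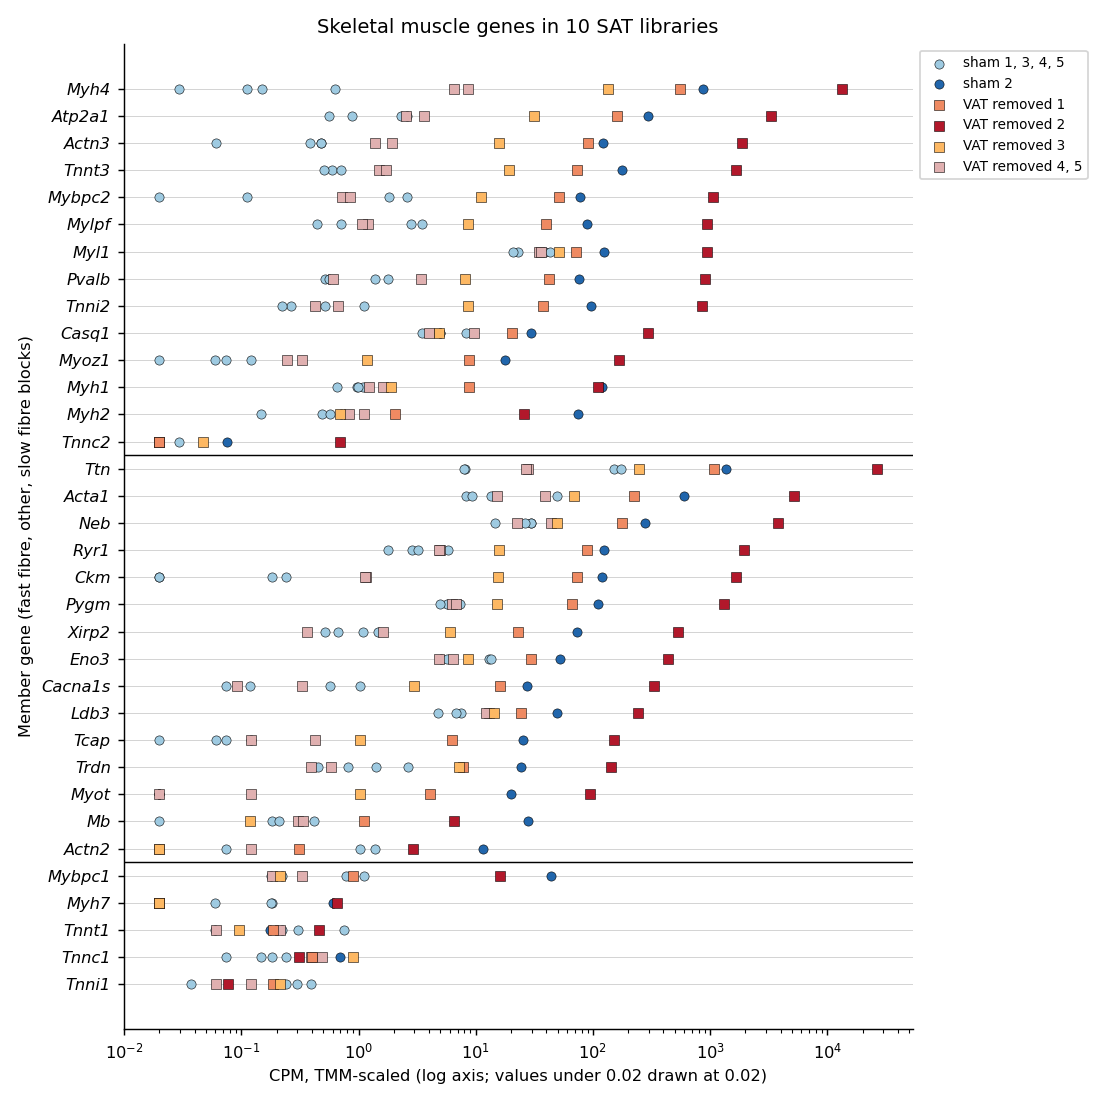
Level of each of the 34 genes (rows, in blocks of fast fibre, shared and slow fibre genes) in each of the 10 SAT libraries, as TMM-scaled CPM on a log axis. VAT removed library 2 lies to the right of the other libraries in 26 rows, sham library 2 does so in 5, and the troponin genes of slow fibres stay under 1 CPM in all 10.

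The 3 adult fast myosin genes lie side by side on the plus strand of chromosome 11 (GRCm38, GENCODE M21): Myh2 at chr11:67171027-67197517, Myh1 at chr11:67200052-67224575 and Myh4 at chr11:67238029-67260446. The slow and cardiac myosin gene Myh7 lies on the minus strand of chromosome 14, at chr14:54970684-54994626. Their promoters are shown because the levels of these neighbours parted between the libraries. Each runs 5′ to 3′ from 250 bases before to 50 bases after the RefSeq transcript start (GRCm38.p6), with matches on either strand to a MEF2 site, a CArG box, CATTCC or TATAAA in capitals.
Myh4 (chr11:67237562-67237861, plus strand): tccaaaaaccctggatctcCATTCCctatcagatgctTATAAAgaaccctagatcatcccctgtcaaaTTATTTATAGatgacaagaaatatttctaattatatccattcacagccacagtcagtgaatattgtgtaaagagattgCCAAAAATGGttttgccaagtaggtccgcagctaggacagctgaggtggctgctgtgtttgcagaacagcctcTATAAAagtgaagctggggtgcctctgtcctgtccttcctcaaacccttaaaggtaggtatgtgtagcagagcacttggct
Myh1 (chr11:67199852-67200151, plus strand): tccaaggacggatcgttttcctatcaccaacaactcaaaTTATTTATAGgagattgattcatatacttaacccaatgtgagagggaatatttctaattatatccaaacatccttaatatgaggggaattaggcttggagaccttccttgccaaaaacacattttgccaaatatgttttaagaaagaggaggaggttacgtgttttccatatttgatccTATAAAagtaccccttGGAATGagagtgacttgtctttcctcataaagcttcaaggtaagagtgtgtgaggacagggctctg
Myh2 (chr11:67170777-67171076, plus strand): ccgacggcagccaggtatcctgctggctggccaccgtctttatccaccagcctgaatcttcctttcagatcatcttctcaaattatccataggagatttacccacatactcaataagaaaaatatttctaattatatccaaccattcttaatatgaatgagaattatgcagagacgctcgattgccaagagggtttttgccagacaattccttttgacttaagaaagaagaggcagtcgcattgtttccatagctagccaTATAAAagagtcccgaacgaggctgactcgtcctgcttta
Myh7 (chr14:54994577-54994876, minus strand): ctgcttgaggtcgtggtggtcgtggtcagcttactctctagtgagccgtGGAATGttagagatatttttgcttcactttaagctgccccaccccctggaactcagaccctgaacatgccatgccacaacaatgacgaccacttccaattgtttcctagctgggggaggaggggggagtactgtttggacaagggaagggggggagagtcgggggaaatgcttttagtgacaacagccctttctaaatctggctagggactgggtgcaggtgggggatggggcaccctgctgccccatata
MEF2 sites bind factors of the MEF2 family, CArG boxes the serum response factor, CATTCC the TEAD factors, and TATAAA is the core of the TATA box. The Myh4 and Myh1 windows held the same MEF2 letters, starting at base -182 in Myh4 and at base -211 in Myh1, counted from the transcript start, and no match to that motif was in the Myh2 or Myh7 window. Each of these MEF2 matches overlaps a TATAAA match on the other strand. Further TATAAA matches started at bases -213 and -31 in Myh4, -32 in Myh1 and 11 in Myh2. These positions depend on the RefSeq start used, which can differ from the GENCODE start. The Myh4 window ends at base 67237861, before the GENCODE start of Myh4 at 67238029. Myh4 alone of the 4 held a CArG box, at base -104.

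RefSeq promoters were found for 26 of the 34 members. A MEF2 site was in 5 of these 26 windows, those of Myh1, Myh4, Pvalb, Ttn and Xirp2, against 3.26% of 27025 mouse promoters of that length. A CArG box was in 3 (Acta1, Ldb3 and Myh4, against 1.57%), CATTCC in 10 (against 14.63%), TATAAA in 6 (against 14.16%) and the E-box CANNTG, the motif of the MyoD family, in 21 (against 72.15%). These matches describe letters in a window and not binding.

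Myh4, the type IIb myosin of the fastest fibres, had 0.0297, 869, 0.152, 0.633 and 0.111 CPM in sham libraries 1 to 5 and 549, 13417, 133, 6.59 and 8.62 CPM in VAT removed libraries 1 to 5. It was high in sham library 2 and in VAT removed libraries 1 to 3, and the groups overlapped through sham library 2 alone: the lowest VAT removed value lay above the other 4 sham values. Myh1, the type IIx myosin, had 0.652, 119, 0.97, 1.08 and 0.999 CPM in sham libraries 1 to 5 and 8.72, 109.7, 1.9, 1.6 and 1.22 CPM in VAT removed libraries 1 to 5. It was similar in sham library 2 and VAT removed library 2, with a ratio of 0.922 (95% counting interval 0.880 to 0.966). Myh2, the type IIa myosin, had 0.148, 74.7, 0.485, 0.572 and 0.703 CPM in sham libraries 1 to 5 and 2.03, 26, 0.688, 1.12 and 0.823 CPM in VAT removed libraries 1 to 5. Here sham library 2 was the highest, VAT removed library 2 the next and the other 8 lay at 2.03 CPM or below. Myh7 had 0.0593, 0.601, 0.182, 0.181 and 0 CPM in sham libraries 1 to 5 and 0, 0.655, 0, 0 and 0 CPM in VAT removed libraries 1 to 5, with no count at all in 4 of the VAT removed libraries.

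Among counts of these 4 myosin genes, Myh4 took 81.7% of 42434 in sham library 2 (exact binomial interval 81.3% to 82.1%), Myh1 11.2% and Myh2 7.03%. In VAT removed library 2 Myh4 took 99.0% of 351616, Myh1 0.810% and Myh2 0.192%. VAT removed library 1 (98.1% Myh4 of 18154 counts) and VAT removed library 3 (98.1% of 5728) had the same ordering, with 1.56% and 1.40% Myh1. Sham library 2 thus differed from the 3 muscle-rich libraries of the other group in the make-up of its myosins, by far more than counting error, and it is the single sham library of this kind, so the difference has no replicate. Myh7 was 0.0566% in sham library 2 (0.0362% to 0.0841%) and 0.00483% in VAT removed library 2 (0.00282% to 0.00774%). It was 0 of 18154 counts in VAT removed library 1, with an exact upper limit of 0.0203%.

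The other libraries held few myosin counts. In VAT removed libraries 4 and 5 Myh4 took 70.8% of 308 and 80.9% of 350 counts, and in sham libraries 1, 3, 4 and 5, with 30 to 82 counts each, Myh1 was the largest part, at 43.9% to 73.3%. These intervals and limits cover counting error only. Myh1, Myh2 and Myh4 are close paralogs, and the handling of reads that match several of them was not given in the sources used here.

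**Figure D3:**
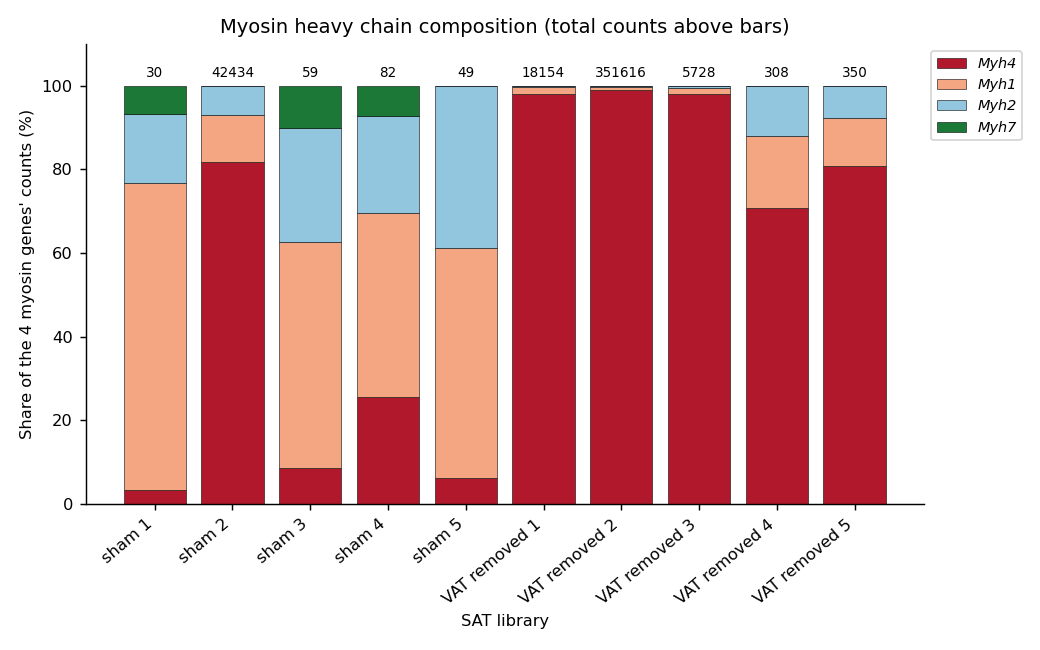
Share of the counts of Myh4, Myh1, Myh2 and Myh7 (percent) in each SAT library, with the total of the 4 genes printed above each bar. Myh4 fills 98.1% to 99.0% of the bar in VAT removed libraries 1 to 3 and 81.7% in sham library 2, while sham libraries 1, 3, 4 and 5 rest on 30 to 82 counts.

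The light chains and the myosin-binding protein of fast fibres shared the top of the order with Myh4 but not the rest. Mylpf, the regulatory light chain of fast fibres, had 0.445, 88.6, 3.45, 2.83 and 0.703 CPM in sham libraries 1 to 5 and 39.5, 942, 8.59, 1.21 and 1.07 CPM in VAT removed libraries 1 to 5. Mybpc2, the fast myosin-binding protein C, had 0, 78.1, 2.58, 1.84 and 0.111 CPM in sham libraries 1 to 5 and 51.3, 1064, 11.1, 0.726 and 0.853 CPM in VAT removed libraries 1 to 5. Both were highest in the same 4 libraries, and in both sham libraries 3 and 4 lay above VAT removed libraries 4 and 5, the reverse of Myh4. Myl1, the essential light chain, was 933 CPM in VAT removed library 2 and 124 in sham library 2, and it kept a level of 20.9 to 71.3 CPM in the other 8.

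The troponin complex of fast fibres is encoded by Tnnt3 (troponin T, which binds tropomyosin), Tnni2 (troponin I, the inhibitor) and Tnnc2 (troponin C, the calcium sensor). Tnnt3 had 0.593, 179, 1.58, 0.512 and 0.703 CPM in sham libraries 1 to 5 and 72.6, 1663, 19.2, 1.48 and 1.71 CPM in VAT removed libraries 1 to 5. Tnni2 had 0.267, 96.5, 0.515, 1.11 and 0.222 CPM in sham libraries 1 to 5 and 37.7, 846, 8.64, 0.423 and 0.67 CPM in VAT removed libraries 1 to 5. Both were high in the 4 muscle-rich libraries and lay under 2 CPM in the remaining 6. Tnnc2 did not follow them: it had 0.0297, 0.0752, 0, 0 and 0 CPM in sham libraries 1 to 5 and 0, 0.694, 0.0475, 0 and 0 CPM in VAT removed libraries 1 to 5. VAT removed library 2 held 18 counts of Tnnc2 beside 21943 of Tnni2. In the annotation, 592 of the 800 exon bases of Tnnc2 (74.0%) are shared with Ube2c on the opposite strand, with a strand setting of the counting not given in the sources used here. Whether that overlap bears on the low count was not tested. In all, 15 of the 34 members share exon bases with another annotated gene, and after Tnnc2 the largest shares were 31.9% in Mb, 21.9% in Atp2a1 and 20.0% in Cacna1s.

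The slow troponins were near 0 in all libraries. Tnnt1 (slow troponin T) had 0.0593, 0.175, 0.303, 0.753 and 0.222 CPM in sham libraries 1 to 5 and 0.185, 0.463, 0.0949, 0.0605 and 0.213 CPM in VAT removed libraries 1 to 5. Tnni1 (slow troponin I) had 0.297, 0.2, 0.242, 0.392 and 0.037 CPM in sham libraries 1 to 5 and 0.185, 0.0771, 0.214, 0.121 and 0.0609 CPM in VAT removed libraries 1 to 5. Tnnc1 (troponin C of slow and cardiac muscle) had 0.148, 0.701, 0.182, 0.241 and 0.074 CPM in sham libraries 1 to 5 and 0.4, 0.308, 0.902, 0.484 and 0.396 CPM in VAT removed libraries 1 to 5. None of the 3 was highest in sham library 2, and VAT removed library 2 lay within the range of the other 9 for each. Per kilobase of exon, the slow genes made up 0.0326% of troponin counts in VAT removed library 2 (0.0338% without the division by length, exact interval 0.0212% to 0.0511%) and 0.454% in sham library 2, where Tnnc1 gave 28 of the 43 slow counts. The share was 0.727% in VAT removed library 1 and 5.11% in VAT removed library 3, both above sham library 2, so the surgery groups overlapped. In VAT removed library 3 Tnnc1 gave 38 of the 51 slow counts, beside 2 counts of its fast counterpart Tnnc2. For troponin I alone the slow share was 1.02% in VAT removed library 3, 0.204% in VAT removed library 1 and 0.0863% in sham library 2. For troponin T alone it was 0.353%, 0.183% and 0.0705% in these libraries. In the libraries poor in muscle RNA the share over all troponins was higher still, from 22.1% (sham library 3) to 39.0% (sham library 4). Tnnt1 and Tnnc1 had liver medians of 0.505 and 0.434 CPM, against 0.218 and 0.211 CPM in those SAT libraries. The part of muscle fibres in the slow counts was not tested, so the share is not read as fibre make-up.

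Of the 5 slow fibre genes, only Mybpc1 was abundant. It encodes the slow myosin-binding protein C, which type II fibres also use. It had 0.178, 44.1, 0.788, 1.11 and 0.222 CPM in sham libraries 1 to 5 and 0.893, 16.1, 0.214, 0.333 and 0.183 CPM in VAT removed libraries 1 to 5. Sham library 2 was the highest and VAT removed library 2 the next, with the other 8 at 1.11 CPM or below. It made up most of the 45.8 CPM that the slow list summed to in sham library 2.

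The calcium-handling genes had large spans. Atp2a1, the calcium pump of fast fibres (SERCA1), had 0.563, 294, 2.61, 2.32 and 0.888 CPM in sham libraries 1 to 5 and 161, 3329, 31.4, 3.63 and 2.53 CPM in VAT removed libraries 1 to 5. Ryr1, the calcium release channel, had 2.85, 124, 3.21, 5.81 and 1.78 CPM in sham libraries 1 to 5 and 88.3, 1938, 15.9, 4.96 and 4.84 CPM in VAT removed libraries 1 to 5. Both were highest in the 4 muscle-rich libraries, and the remaining 6 lay at or below 5.81 CPM in each. Cacna1s (the voltage sensor), Casq1 (calsequestrin) and Trdn (triadin) had 335, 297 and 141 CPM in VAT removed library 2, against 27.3, 29.9 and 24.5 CPM in sham library 2. Pvalb, the cytosolic calcium buffer parvalbumin of type IIb fibres, had 1.78, 75.5, 0.515, 1.39 and 0.555 CPM in sham libraries 1 to 5 and 42.5, 906, 8.16, 0.605 and 3.41 CPM in VAT removed libraries 1 to 5.

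The Z-disc, where thin filaments are anchored, holds a pair of actinin paralogs that parted between the libraries. Actn3, the alpha-actinin of fast fibres, had 0.386, 122, 0.0606, 0.482 and 0.481 CPM in sham libraries 1 to 5 and 91.2, 1872, 15.9, 1.93 and 1.37 CPM in VAT removed libraries 1 to 5. Actn2, the alpha-actinin of all fibres and of heart, had 0, 11.5, 1.39, 1.02 and 0.074 CPM in sham libraries 1 to 5 and 0.308, 2.89, 0, 0.121 and 0 CPM in VAT removed libraries 1 to 5. The paralogs thus had opposite orders in the top libraries: Actn3 was 15.4 times higher in VAT removed library 2 than in sham library 2 (15.0 to 15.9), and Actn2 was 0.251 of the sham level (0.194 to 0.322, on 75 and 459 counts). Myoz1, Tcap, Ldb3, Myot and Xirp2, which encode further Z-disc and actin-binding proteins, were all highest in VAT removed library 2, at 168, 151, 242, 93.7 and 528 CPM, with 17.8, 25.2, 49.4, 19.9 and 73.3 CPM in sham library 2. Tcap and Myot were at or under 0.423 CPM in the 6 libraries poor in muscle RNA, and Ldb3 kept 4.79 to 12.9 CPM there.

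Genes of metabolism behaved unequally. Ckm, the muscle creatine kinase that buffers ATP, had 0, 119, 0.182, 0.241 and 0 CPM in sham libraries 1 to 5 and 73.5, 1658, 15.4, 1.15 and 1.13 CPM in VAT removed libraries 1 to 5. It was at 0 counts in sham libraries 1 and 5, where 3 counts would be 0.0890 and 0.111 CPM. Mb, the oxygen store myoglobin, had 0.415, 28, 0.182, 0.211 and 0 CPM in sham libraries 1 to 5 and 1.11, 6.51, 0.119, 0.302 and 0.335 CPM in VAT removed libraries 1 to 5, and sham library 2 was above VAT removed library 2. Pygm, the glycogen phosphorylase of muscle, had 5.69, 110.1, 6.51, 7.38 and 5 CPM in sham libraries 1 to 5 and 65.9, 1307, 15.1, 6.29 and 6.73 CPM in VAT removed libraries 1 to 5. Eno3, the muscle enolase, had 5.04, 52.1, 13, 13.4 and 5.74 CPM in sham libraries 1 to 5 and 29.5, 437, 8.62, 6.35 and 4.81 CPM in VAT removed libraries 1 to 5. Both kept several CPM in every SAT library, and Eno3 was higher in sham libraries 3 and 4 than in VAT removed library 3.

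Acta1, the skeletal actin, had 13.4, 601, 8.3, 9.31 and 49.4 CPM in sham libraries 1 to 5 and 226, 5237, 69.6, 39.3 and 15.3 CPM in VAT removed libraries 1 to 5. Neb, which encodes nebulin, had 29.8, 279, 29.5, 26.5 and 14.6 CPM in sham libraries 1 to 5 and 179, 3809.5, 49.8, 22.3 and 44.2 CPM in VAT removed libraries 1 to 5. Acta1 varied also among the libraries poor in muscle RNA, where sham library 5 and VAT removed library 4 were the highest. Per kilobase of exon the most abundant members in VAT removed library 2 were Acta1 (3409.7 CPM per kb), Myh4 (2230.2), Tnnt3 (1051), Atp2a1 (957) and Mylpf (887), all level values on the length scale. Acta1 and Myh4 also led in sham library 2, at 391 and 144 CPM per kb.

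Between VAT removed library 2 and sham library 2 the members did not scale by 1 factor. Of the 28 with at least 100 counts in both libraries, 24 were higher in VAT removed library 2, by 4.71 (Myot) to 19.3 times (Ttn), with a median of 10.3. The other 4 were lower there: Myh1 at 0.922, Mybpc1 at 0.365, Myh2 at 0.348 and Mb at 0.233 of the sham level. Counting intervals of these 4 lay far from the other 24, and Actn2, with fewer counts, lay with the 4. Between VAT removed libraries 2 and 1 the 25 members with at least 100 counts had ratios of 9.89 (Ldb3) to 24.5 (Myh4) with a median of 21.3. Of the genes with fewer counts, Mb had a ratio of 5.87 (4.08 to 8.67), Actn2 9.38 (4.83 to 20.4), Myh2 12.8 and Mybpc1 18.0, so none of these was lower in VAT removed library 2. The same genes were low in VAT removed library 1 against sham library 2, with ratios of 0.0732 for Myh1, 0.0272 for Myh2, 0.0202 for Mybpc1, 0.0268 for Actn2 and 0.0396 for Mb, against 0.631 for Myh4 and 0.616 for Ckm.

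**Figure D4:**
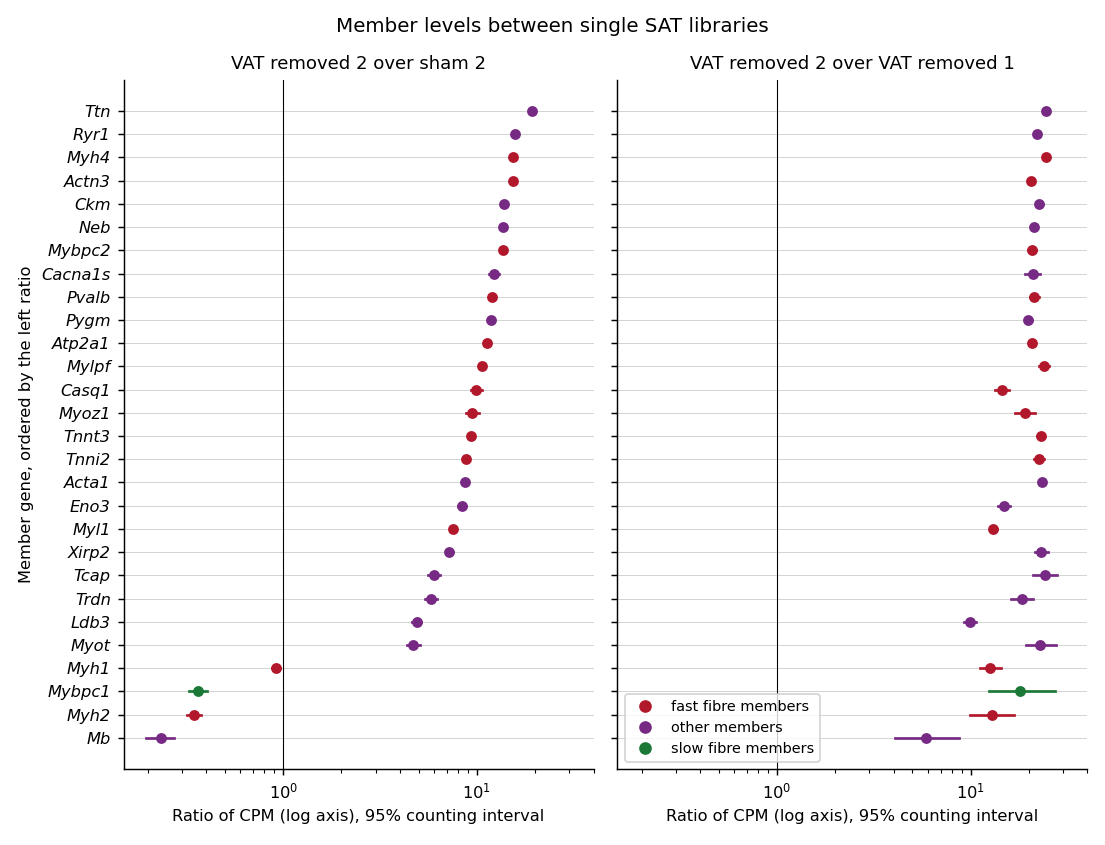
Ratio of TMM-scaled CPM (log axis, with 95% counting intervals) for the 28 members with at least 100 counts in both VAT removed library 2 and sham library 2, on the left, and the same genes between VAT removed libraries 2 and 1, on the right. On the left Myh1, Mybpc1, Myh2 and Mb lie at 0.922 or lower while the other 24 lie between 4.71 and 19.3; on the right all lie above 1, and Mybpc1, Myh2 and Mb rest on fewer than 100 counts in VAT removed library 1.

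Titin was also high in libraries where other muscle genes, such as Myh4 and Ckm, were low. Ttn, which encodes this giant spring of the sarcomere, had 8.13, 1373, 151, 172 and 7.96 CPM in sham libraries 1 to 5 and 1085, 26528, 248, 27.7 and 27 CPM in VAT removed libraries 1 to 5. It was high in the 4 muscle-rich libraries and also in sham libraries 3 and 4, whose Myh4 and Ckm levels were under 1 CPM. For each Ckm count there were 11.5 Ttn counts in sham library 2, 14.8 in VAT removed library 1, 16.0 in VAT removed library 2 and 16.1 in VAT removed library 3. In sham libraries 3 and 4 there were 828 and 714, on 6 and 8 Ckm counts. Myh4 had 7.27 to 8.66 counts per Ckm count in the same 4 muscle-rich libraries. Sham libraries 3 and 4 are those with the lymph node genes: Cd79a, of the B cell receptor, had 97.5 and 107 CPM there and at most 1.95 CPM in the other 8. The part of lymphoid RNA in these levels was not tested.

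**Figure D5:**
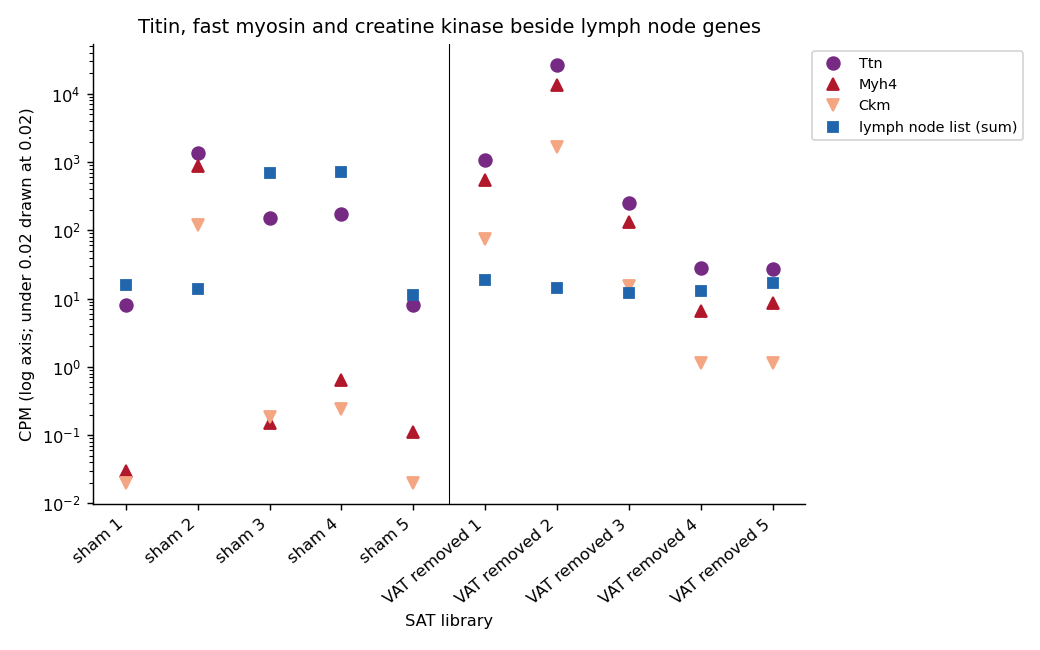
Levels of Ttn, Myh4 and Ckm and the summed level of 10 lymph node genes in each SAT library, in CPM on a log axis. In sham libraries 3 and 4 Ttn stands at 151 and 172 CPM with Ckm at 0.182 and 0.241 CPM and lymph node genes at 704 and 715 CPM.

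The comparison of surgery groups in SAT asks how the subcutaneous depot differs once visceral fat is gone, and for these genes it turned on single libraries. In the edgeR quasi-likelihood fit no gene passed an adjusted p of 0.05 in either direction (0%, of 18530), while 1973 had an unadjusted p under 0.05 and DESeq2 called 200 genes. No member was called by edgeR, and whether members are among the genes called by DESeq2 in SAT is not given. Of the 29 members fitted, 24 had a log2 difference (VAT removed minus sham) above 0, against 49.7% of all genes, and the median was 3.17 against -0.0020 over all genes. The 5 below 0 were Myh1 (-0.0042), Myh2 (-1.34), Mybpc1 (-1.41), Actn2 (-2.15) and Mb (-1.81). Standard errors of the members' log2 differences ran from 0.54 (Tnnc1) to 2.89 (Myh4), with 4.02 ± 2.89 (SE) for Myh4 and 3.86 ± 2.56 for Ckm. Without VAT removed library 2 the median was -0.29, and without sham library 2 it was 6.39. Tnnc2, Myh7, Tnnt1, Tnni1 and Myot did not pass the filter on low counts.

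The median log2 difference was 3.29 for 13 fast fibre genes, 2.94 for 14 shared genes and -0.28 for the slow fibre genes, of which just Tnnc1 (0.85) and Mybpc1 (-1.41) were fitted. Between surgery groups, no member separated all 5 libraries of one group from all 5 of the other, as 1.44% of all genes did. In 7 of the 29 (Myh4, Myh1, Ckm, Actn3, Tcap, Myoz1 and Tnnc1) all 5 VAT removed libraries lay above all sham libraries but the highest, an order seen in 4.03% of all genes. The order was looked for after the values were seen, and the members were selected on these SAT levels, so their share is no finding. For some of the 7 it rests on near ties. Tcap had 0.122 CPM in VAT removed library 5 and 0.121 CPM in sham library 3, on 4 counts each. Myh1 had 1.22 CPM in VAT removed library 5 and 1.08 CPM in sham library 4. The gap was wider for Myh4, with 6.59 and 8.62 CPM in VAT removed libraries 4 and 5, which are otherwise poor in muscle RNA, against at most 0.633 CPM in sham libraries 1, 3, 4 and 5.

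Further muscle genes, from a list of 60 that holds no member, had similar orders in part. Of the 43 fitted, 39 had a log2 difference above 0, against 49.7% of all genes, with a median of 2.21 and none called by edgeR. In 31 the level was at least 4 times higher in VAT removed library 2 than in any other SAT library, against 0.707% of all genes. This list was chosen with earlier results of these data known, so both counts are a description. The 4 below 0 were Ankrd2 (-1.44), Tpm3 (-0.11), Myom3 (-0.07) and Amy1 (-0.0048). Tpm1, a tropomyosin of fast fibres and many other cells, had 2085 CPM in VAT removed library 2, 227 in sham library 2 and 75.9 to 185 in the others. Tpm3, the slow fibre tropomyosin that non-muscle cells also make, was level, at 166 CPM in VAT removed library 2 and 148 to 215 CPM in the others. Atp2a2, the calcium pump of slow fibres, heart and other cells, was level too, at 234 CPM against 187 to 254 CPM.

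The other slow or cardiac-shared genes, a list of 10, did not move as 1 group between these libraries. Lmcd1, Casq2 and Myh7b had 10.5, 1.88 and 2.71 CPM in sham library 2 and 14, 2.31 and 2.93 CPM in VAT removed library 2. The genes that follow, and Casq2 and Myh7b, were named after their values were seen and support no pattern. Csrp3 and Ankrd2, mechanosensing genes of slow and cardiac muscle, had 2.58 and 1.88 CPM in sham library 2 and 0.0771 and 0.0385 CPM in VAT removed library 2. Myl2, the slow regulatory light chain, had 0.802 CPM in sham library 2 and no count in VAT removed library 2. Trim63, a ubiquitin ligase of muscle, went the other way, with 5.56 and 143 CPM.

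Myf6, a MyoD family factor of mature fibres, had 15 CPM in VAT removed library 2 and 1.93 in sham library 2, and Myh8, the perinatal myosin, had 101 and 7.52 CPM. Ncam1, an adhesion gene of regenerating muscle, nerve and other cells, did not share this order, with 1.01, 2.23, 2.64, 1.81 and 1.85 CPM against 3.17, 2.74, 2.11, 1.72 and 0.792 CPM in libraries 1 to 5 of sham and VAT removed. Of the genes outside all lists, those with the largest ratio of VAT removed library 2 to the next library were Lbx1 (a factor of migrating limb muscle precursors, 23.7 times, at 10.7 CPM), Ky (22.3 times, at 48.7 CPM) and Sim2 (20.5 times, at 5.05 CPM). The next were B230312C02Rik, Ddit4l, Mybph, 1110002E22Rik, Mstn, Casr and Myo18b, at 14.4 to 19.7 times. Mstn encodes myostatin, which restrains muscle growth, and stood at 15.5 CPM in VAT removed library 2.

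Markers of other tissues were compared in the same libraries. The smooth muscle list was 1231 CPM in VAT removed library 2 and 810 to 1281 CPM in the others, and the cardiac list 71.7 CPM and 51.0 to 87.3 CPM. The white adipocyte list was 25365 CPM in VAT removed library 2 and 33774 CPM in sham library 2, against 16006 to 30911 CPM in the others. The brown and beige fat list was highest in VAT removed library 2, at 503 CPM, against 363 CPM in sham library 2 and 176 to 488 CPM in the other 8. Pdk4 alone gave 236 of the 503 CPM, and it had 236 CPM in VAT removed library 3 too. Genes of this list did not share 1 order. Ucp1 had 5.13 CPM in VAT removed library 2 and 0.150 CPM in sham library 2, and Cidea had 8.79 and 25.7 CPM. Ucp1 and Cidea were named after their values were seen. The nerve and Schwann cell list was highest in VAT removed library 1, at 493 CPM, against 188 to 355 CPM in the others. The part of these cells in the muscle values was not tested.

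Liver served as the tissue the choice of members did not use. Most members were at or near 0 there, and 10 of the 34 passed the filter on low counts. Neb was the exception, with 78, 43.5, 44.7, 66.8 and 61.2 CPM in sham and 70.4, 29.9, 145, 60.3 and 37.5 CPM after VAT removal, libraries 1 to 5 each, against 14.6 to 49.8 CPM in the SAT libraries other than sham library 2 and VAT removed libraries 1 and 2. Ttn had 3.13, 5.38, 5.14, 3.5 and 5.37 CPM in sham and 23, 4.82, 7.26, 5.3 and 5.82 CPM after VAT removal, libraries 1 to 5 each. Eno3 and Pygm stood between 1.67 and 4.93 CPM in all 10 liver libraries.

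The liver comparison of surgery groups had no called gene of 17078 in edgeR (0%), with 1691 at an unadjusted p under 0.05, and DESeq2 called 199. All 10 members fitted had a log2 difference above 0, against 52.2% of all genes, with a median of 0.23 against 0.01. The 10 genes share the same libraries, so their common direction is a description. None of the 10 was called by edgeR, and none of the 8 members with an adjusted p in DESeq2 was called there. Ttn alone had an unadjusted p under 0.05 by edgeR: 9.23 ± 7.72 CPM (SD, n = 5) after VAT removal against 4.50 ± 1.10 CPM, a log2 difference of 1.03 ± 0.44 (SE) with an edgeR adjusted p of 0.477. It was above the sham mean in 5 of 5 libraries, but VAT removed liver library 1 set the mean, at 23.0 CPM. Neb was 68.5 ± 45.6 CPM against 58.9 ± 14.8 CPM (edgeR adjusted p = 0.901), and the groups overlapped. Ryr1, Casq1, Pygm, Ldb3, Tnnc1, Eno3, Atp2a1 and Tnnt1 had log2 differences of 0.04 to 0.55 with edgeR adjusted p of 0.656 to 0.977.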

How the data were processed

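Libraries were made from total RNA after removal of ribosomal RNA, per the labels' protocols. The submitters' processing notes name bcl2fastq, STAR 2.5.1a, the GRCm38 build and featureCounts 1.46 (Subread), with annotation, strand setting and treatment of multi-mapping reads not given in the sources used here. The values deposited by the authors are raw read counts for each gene in 20 libraries.

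Of 40757 entries, 317 exact repeats were dropped. Groups came from sample titles. Liver and SAT were fitted apart in edgeR 4.0.16 (R 4.3.3) with filterByExpr, TMM and robust quasi-likelihood tests, adjusted by Benjamini and Hochberg over all genes (threshold 0.05). DESeq2 1.42.0, RLE scaling, other filters, a block for library number and left-out libraries were alternatives. On simulated counts the liver fit recovered 35.8%, 70.1% and 89.4% of genes changed 1.5-fold, 2-fold and 4-fold (17078 genes), and the SAT fit 5.97%, 43.3% and 87.9% (18530 genes). No 2 libraries of a group differed by as little as sampling noise. Exon lengths came from GENCODE M21, and promoters from RefSeq (GRCm38.p6). Intervals are exact binomial at 95%. Standard errors of log2 differences are the absolute difference divided by the square root of the quasi-likelihood F statistic. For the members in SAT they describe spread and serve as no test.

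The members and all gene lists were chosen with earlier results of these data known. Named genes were the members, up to 3 genes of each other list with the highest mean in SAT, and 10 genes outside the lists with the largest ratio of VAT removed SAT library 2 to the next library among those with at least 5 CPM. Values in every SAT library are given for 25 members. Of the genes this rule selected, 3 that are not members are not reported here.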

Additional observations from a re-analysis of the deposited data

Results flagged for a closer look

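Within each group of 5 libraries the highest or lowest library was compared with its nearest neighbour on the scale of log2(CPM + 0.5), and a gap of more than 0.710 of the whole range of the group marked a library that stood far from the other 4. Of 83 groups searched 29 were marked. Chance alone marks about 1 group in 20 where values were not chosen beforehand. Here the members were selected on their SAT levels and share their libraries, so the SAT marks describe those libraries and test nothing.

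Sham SAT library 2 was marked most often. Its summed level was 5129.8 CPM for all members (129 to 287 CPM in the other 4 sham libraries) and 2167 CPM for the fast fibre genes (38.8 to 53.6 CPM). Among fast fibre genes the library had 119 CPM of Myh1, 74.7 CPM of Myh2, 869 CPM of Myh4, 179 CPM of Tnnt3, 96.5 CPM of Tnni2, 122 CPM of Actn3, 75.5 CPM of Pvalb, 294 CPM of Atp2a1 and 17.8 CPM of Myoz1. Among the other genes it had 44.1 CPM of Mybpc1, 119 CPM of Ckm, 279 CPM of Neb, 124 CPM of Ryr1, 28.0 CPM of Mb, 110.1 CPM of Pygm, 27.3 CPM of Cacna1s, 25.2 CPM of Tcap, 19.9 CPM of Myot and 73.3 CPM of Xirp2. The marked genes span myosins, troponins, Z-disc and metabolic genes. Myot was at 0 in the other 4 sham libraries.

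VAT removed SAT library 2 was marked less often, and for most members libraries 1 and 3 of its group lay between it and the rest. It had 26 CPM of Myh2 (0.688 to 2.03 CPM in the other 4), 933 CPM of Myl1 (34.7 to 71.3 CPM in the other 4), 16.1 CPM of Mybpc1 (0.183 to 0.893 CPM in the other 4), 2.89 CPM of Actn2 (0 to 0.308 CPM in the other 4) and 242 CPM of Ldb3 (12.3 to 24.4 CPM in the other 4). The slow fibre genes summed to 17.6 CPM there, against 0.853 to 1.66 CPM in the other 4, and Mybpc1 alone gave 16.1 of the 17.6 CPM. In liver, VAT removed library 1 had 23.0 CPM of Ttn (4.82 to 7.26 CPM in the other 4), and VAT removed library 2 had 4.93 CPM of Eno3 (3.61 to 3.88 CPM).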

How the results depend on the processing

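The SAT median log2 difference of the members (3.17) turned to -0.29 without VAT removed library 2 and to -0.93 without that library and sham libraries 3 and 4, and over single left-out libraries it ran from -0.29 to 6.39. Without library 2 of both groups it was 2.12, and without sham library 2 and VAT removed libraries 1 to 3 it was 0.38. The last 2 exclusions, both with sham library 2, were chosen after seeing the data. The difference between fast and slow fibre genes (3.57) rests on 2 fitted slow genes. It was 1.24 without sham libraries 3 and 4 and VAT removed library 2, ran from 1.49 to 5.52 over single left-out libraries, and had no value with at least 1 CPM in 5 libraries, which left no slow gene. The liver median (0.23) kept its direction under all 15 settings tried, from 0.13 to 0.27 over single left-out libraries and 0.11 with no filter. The ratio of VAT removed library 2 to the median of the other 9 (261) ran from 248 to 303 over single left-out libraries and was 176 as a median over members. The slow share of troponin counts in VAT removed library 2 (0.0326%) was 0.00338% for Myh7 among the 4 myosins. Over all genes, DESeq2 called 199 in liver and 200 in SAT, where edgeR called 0. In liver edgeR called 3 with no filter, 3 with the stricter filter, and 0 to 53 over single left-out libraries (53 without VAT removed library 3, 2 without VAT removed library 2 and 1 without VAT removed library 1). In SAT it called 0 to 1, with 1 without sham library 5. The cause of these changes was not tested.

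Library numbers are shared across groups. The deviations of equal numbers from their group means had correlations of -0.24 to 0.32 in SAT and -0.05 to 0.20 in liver, and in SAT 1 of 5 and in liver 3 of 5 numbers correlated best with their own, so the numbers were not treated as pairs. With the library number as a block the SAT median was 2.20, the fast to slow difference 2.92 and the liver median 0.26, and 0 genes were called in either tissue. The slow troponins, Tnnc2 and Myh7 had fewer than 50 counts in each SAT library, so their levels are imprecise. Why their counts are low was not tested.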
